A study of Caenorhabditis elegans with 2 samples.

Results

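A set of 6 genes of glycerol synthesis, osmolyte transport and osmotic sensing in the worm epidermis was examined for binding by the GATA-type transcription factor ELT-3. They were gpdh-1, gpdh-2, hmit-1.1, osm-7, osm-8 and osm-11, 6 of the 19973 protein-coding genes on the 6 nuclear chromosomes. They were listed by name for their known roles, with earlier results of these data in view. A region called from these data was given to a gene when it overlapped the gene's window by at least 1 bp. The window ran from 2000 bp upstream of the annotated gene start to the gene end.

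The data were chromatin immunoprecipitation followed by sequencing (ChIP-seq), described in the labels as of ELT-3 tagged with eGFP. The antibody is given only as elt-3, so whether it took untagged ELT-3 as well is not settled by the labels. The worms were strain OP75, genotype unc-119(ed3) III; wgIs75, in which an integrated transgene supplies the tagged factor and the unc-119 gene is mutant. Whole embryos of mixed stage and both sexes were pooled, in 2 biological replicates of 1 group, with fragments of 150 to 350 bp, and the labels name no osmotic treatment. All tissues of the embryo were in the chromatin, so a region cannot be assigned to the epidermis, and the data hold no RNA. The control named in the labels was not analysed here, so there was no second group and no test.

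Worms in a salty medium lose water, and they restore their volume by making and storing glycerol. Glycerol is made from an intermediate of glycolysis by glycerol-3-phosphate dehydrogenase, the step that gpdh-1 and gpdh-2 encode, and the gpdh-1 transcript rises strongly under hypertonic stress. In worms that have lost osm-7, osm-8 or osm-11, gpdh-1 is switched on without salt, so these genes are known as brakes on the response. GATA factors bind DNA through zinc fingers at the sequence WGATAR, with A or T at W and A or G at R, which was searched on both strands, and ELT-3 is a GATA factor of the epidermis.

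Each list gives, for each region, a score that is the authors' own value with no stated scale, so regions were ranked within their list only, with rank 1 the highest. A rank is also given as a percentage of the list, in which 1% means that the region was among the highest 1%. The list that the authors call optimal is named the reproducible list here. It was filtered by IDR (irreproducible discovery rate), a measure of rank agreement between lists. Whether the lists compared were those of replicates 1 and 2 was not settled here, so the name is a label only. The reproducible list held 637 regions with scores of 42.0 to 233 on the nuclear chromosomes. Its regions were exactly the highest of the 12702 regions called on both replicates pooled. Replicate 1 gave 19168 regions and replicate 2 gave 26381, with median widths of 380 and 364 bp. Both replicate lists and the pooled list were called at a relaxed threshold that lets in background, and the median −log10 q-value of the pooled list was 0.175. Read depth is unknown from such lists.

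One of the genes, gpdh-1, had a reproducible region, and the others had none. Over all protein-coding genes 3.55% had one. In the pooled list 3 of the 6 genes had a region (gpdh-1, gpdh-2 and osm-7), where 45.8% of all genes did. In replicate 1 it was 4 of 6, those 3 and osm-11, where 59.5% of all genes had a region, and in replicate 2 it was 6 of 6, where 70.3% of all genes did. Regions of both replicates that overlapped each other were found at 4 of 6 genes (gpdh-1, gpdh-2, osm-7 and osm-11), against 32.7% of all genes. The windows of these genes were longer than usual, with a median of 5.43 kb against 4.03 kb for all genes. Per kb of window they held 0.0297 reproducible regions against 0.00724 for all genes, 0.178 pooled regions against 0.141, 0.208 replicate 1 regions against 0.211, and 0.505 replicate 2 regions against 0.291. The reproducible rate at the 6 genes rests on 1 region, that of gpdh-1.

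**Figure D1:**
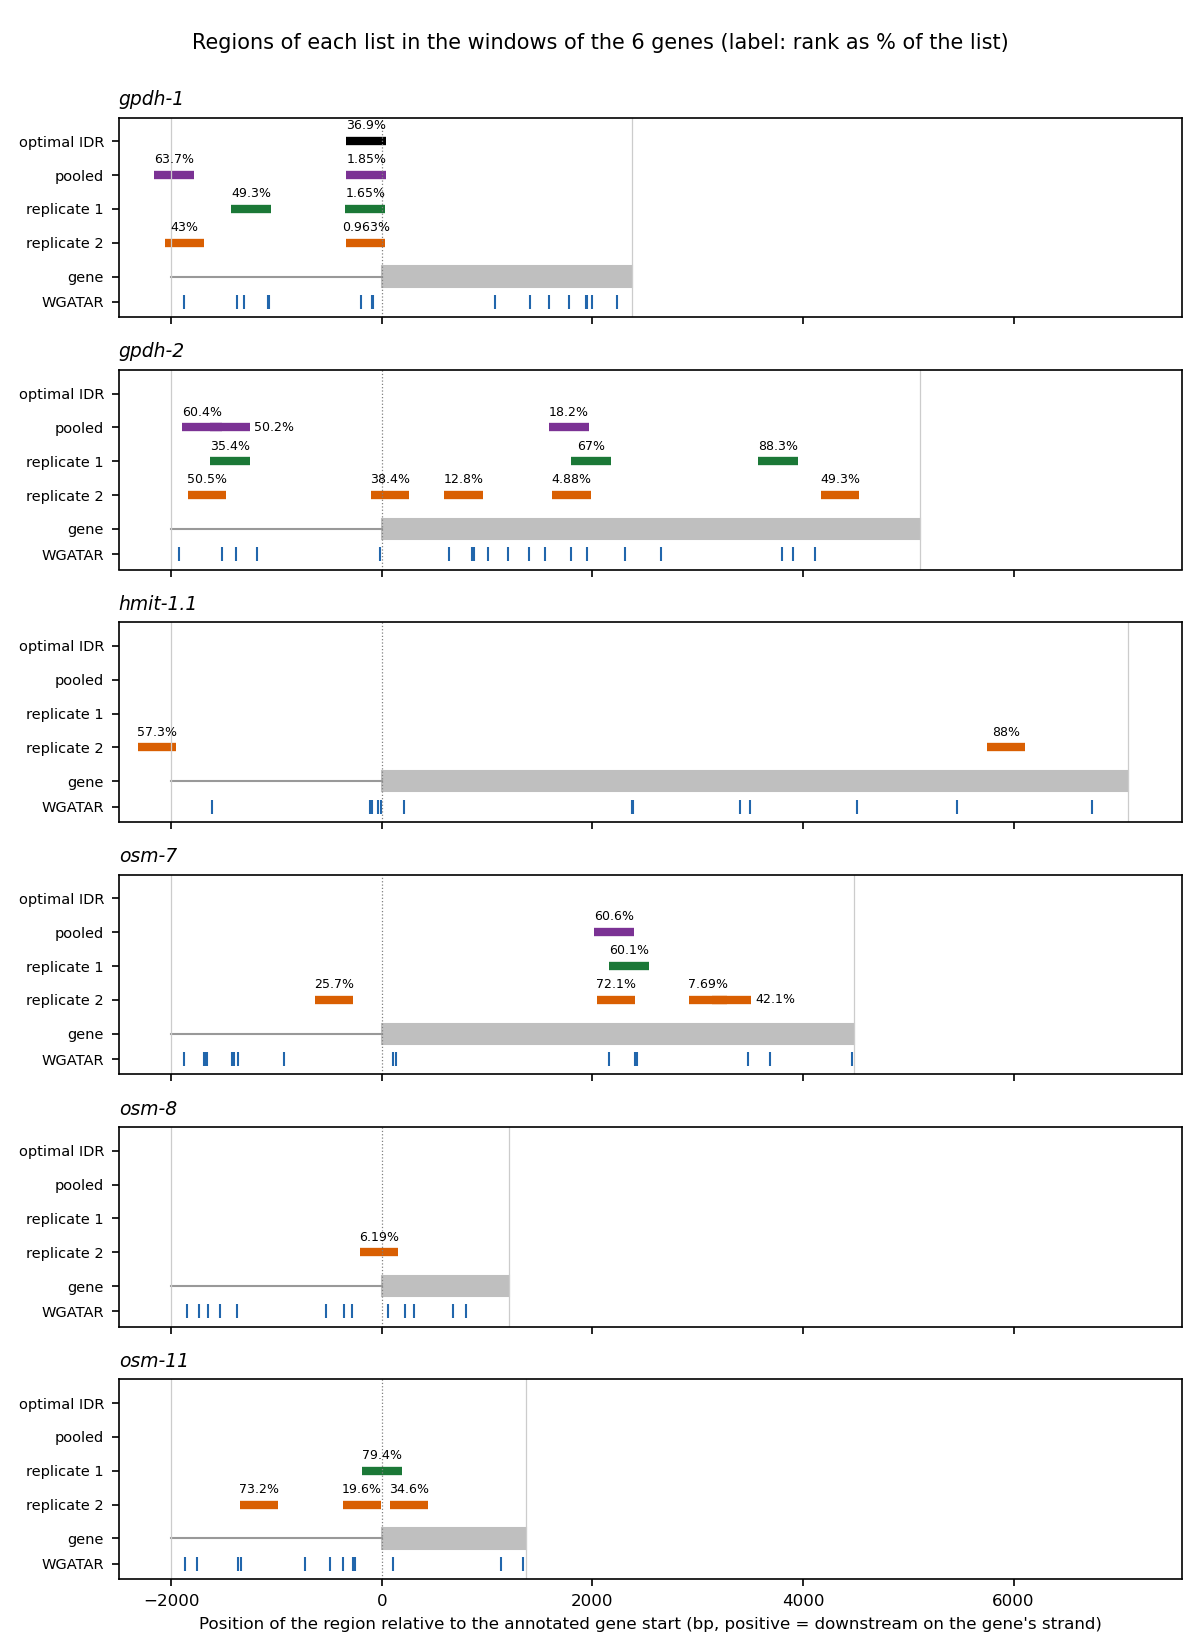
Regions of the 4 lists in the window of each gene, drawn by position in bp from the gene start on the gene's strand, with the rank of each region as a percentage of its list printed beside it. Grey boxes are genes, grey lines the 2000 bp upstream, and blue ticks WGATAR sequences. The regions of all 4 lists coincide just upstream of gpdh-1, those in the gpdh-2 intron lie side by side in 3 lists, and hmit-1.1 and osm-8 have regions in the replicate 2 list alone.

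The gpdh-1 gene (WBGene00009824) encodes glycerol-3-phosphate dehydrogenase [NAD+] and lies at 14075837 to 14078211 on the plus strand of chromosome I. Its reproducible region spanned 14075501 to 14075880, over the gene start, with the summit in intergenic sequence 146 bp upstream. It had a score of 60.2 and ranked 235 in the pooled list, in the highest 1.85%, with a deposited −log10 q-value of 3.03, the highest value in that list, which 534 regions share. In replicate 1 the summit lay 158 bp upstream with a score of 33.2 at rank 316, in the highest 1.65%. In replicate 2 it lay 154 bp upstream with a score of 25.8 at rank 254, in the highest 0.963%. Both replicates therefore placed the summit close to the same base, and high in the list, as did the pooled list, which was called on the same 2 replicates. The gene was the only one of the 6 with a region among the 637 highest of replicate 1, where 3.45% of all genes had one, and likewise in replicate 2, where 3.65% of all genes had one.

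Set among all protein-coding genes, 238 genes, or 1.19%, had a higher pooled region than gpdh-1, 323 genes (1.62%) had a higher one in replicate 1, and 274 genes (1.37%) had a higher one in replicate 2. A reproducible summit as near to the gene start as that of gpdh-1 was found at 0.501% of genes. No other protein-coding gene's window held the region, and the nearest other reproducible region lay 34828 bp downstream of the gpdh-1 window, beside dnj-29. Windows of non-coding genes were not checked, and the non-coding gene F47G4.11 overlaps the gpdh-1 window. Weaker regions lay farther upstream and differed between lists. The pooled list had one 1972 bp upstream (score 16.5, at 63.7% of the list) that overlapped one in replicate 2, at 1876 bp upstream (6.45, at 43.04%). Replicate 1 had one 1244 bp upstream (11.1, at 49.3%) that overlapped no region of the other lists.

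In all, 3 GATA sequences stood in the gpdh-1 region, all of the form TGATAA on the strand opposite to the gene. They were centred 199, 98 and 80 bp upstream of the gene start, so that neighbours were 101 and 18 bp apart. The first lay 53 bp to the upstream side of the pooled summit, the second 48 bp and the third 66 bp to the gene side, and the summit thus fell between them. None lay wholly within 50 bp of the pooled summit, while 1 lay within 50 bp of the summit in each replicate. At least 3 copies of TGATAA were held by 10.6% of nuclear reproducible regions and by 2.80% of nuclear pooled regions.

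The other enzyme gene of the same step, gpdh-2 (WBGene00010778, chromosome III, 9854074 to 9859183, minus strand), had weaker regions. Their summits and ranks differed between the replicates. Its highest pooled region lay inside the gene, at 9857219 to 9857598, with the summit 1774 bp downstream of the gene start, a score of 25.7 and rank 2308, in the highest 18.2%. In replicate 2 the highest region of the gene was at the same place, with the summit 1800 bp downstream, a score of 14.1 and rank 1287, in the highest 4.88%. In replicate 1 the region that overlapped these had its summit 1985 bp downstream and a score of 9.92, at 67.0% of the list. The intronic region was therefore among the stronger regions of replicate 2 and among the weaker ones of replicate 1. Its −log10 q-values were 0.696 in the pooled list, 1.80 in replicate 2 and 0.0630 in replicate 1.

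The gene has 4 annotated coding transcripts, and 2 of them start far inside it, 2150 and 2155 bp downstream of the gene start. The summit in the first intron of the longer transcripts lay 376 and 381 bp upstream of those inner starts in the pooled list, 165 and 170 bp in replicate 1, and 350 and 355 bp in replicate 2. The highest replicate 1 region of the gene was instead 1441 bp upstream of the gene start, with a score of 12.5 and rank 6793, at 35.4%. The pooled list had a summit at the same base (18.0, at 50.2%) and another 1707 bp upstream (16.8, at 60.4%). Both also fell in the window of twk-48, a potassium channel gene, and the summit 1707 bp upstream was in a coding exon of twk-48. Another 4 regions of replicate 2 lay 1660 bp upstream and 80, 776 and 4352 bp downstream, at 50.5%, 38.4%, 12.8% and 49.3% of that list. The replicate 2 region 1660 bp upstream overlapped the replicate 1 region 1441 bp upstream, and its summit was in an exon of twk-48. Replicate 1 had a further region 3767 bp downstream, at 88.3%. A higher region was found at 2436 genes (12.2%) in the pooled list, 5864 genes (29.4%) in replicate 1 and 1458 genes (7.30%) in replicate 2. The nearest reproducible summit to gpdh-2 was 8833 bp downstream of its start, beside K11H3.3, with a score of 54.0.

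The sequence around the intronic summit is shown because it is the strongest region of gpdh-2 in the pooled list and in replicate 2, though not in replicate 1, and the only one of the 6 pooled regions at these genes with WGATAR within 50 bp of the summit, where 24.6% of all nuclear pooled regions had it. It is the reference (WBcel235, equal to ce11) of chrIII:9857359-9857459 on the minus strand, written 5′ to 3′ along the gene, 50 bases either side of the pooled summit, with WGATAR in capitals. The TGATAA lies 27 bases to the gene's 3′ side of the pooled summit and 1 base from the replicate 2 summit.
gpdh-2 intron 1: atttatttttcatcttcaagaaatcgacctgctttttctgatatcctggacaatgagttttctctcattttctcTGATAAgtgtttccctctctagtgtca
Another TGATAA stood farther along the same region, closer to the inner transcript starts, and it was the GATA sequence nearest to the replicate 1 summit, 32 bases away. It is printed with 12 bases on either side, from chrIII:9857216-9857245 on the minus strand.
gpdh-2 second site: tcatctctcgccTGATAAgagaacacggga

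The transporter gene hmit-1.1 (WBGene00013073, chromosome V, 18516789 to 18523875, plus strand) encodes a proton myo-inositol cotransporter, which brings an osmolyte into cells. It had no region in the pooled list or in replicate 1. Replicate 2 had a region with its summit 2136 bp upstream, a score of 5.70 and rank 15126, at 57.3% of the list, of which only 46 bp reached into the window. Its other replicate 2 region, in intron 7 of 7, had its summit 5929 bp downstream, a score of 4.56 and rank 23224, at 88.0%, and also fell in the window of hmit-1.2. Its highest region thus stood lowest among those of the 6 genes in that list. The nearest pooled summit lay 9650 bp upstream, the nearest in replicate 1 was 9774 bp upstream and the nearest reproducible one was 71788 bp away.

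The start of hmit-1.1 is shown because it holds more GATA sequence than that of gpdh-1 and lies in no region of any list. The reference (WBcel235) of chrV:18516659-18516808 on the plus strand runs across the annotated start to 20 bases past it, with WGATAR in capitals. The 4 matches are centred 111, 90, 39 and 11 bp upstream, and 3 of them are TGATAA.
hmit-1.1 start: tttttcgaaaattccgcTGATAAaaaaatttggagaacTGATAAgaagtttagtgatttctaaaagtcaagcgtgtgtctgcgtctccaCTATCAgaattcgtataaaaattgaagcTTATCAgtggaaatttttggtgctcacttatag
In the 300 bp that reach from 250 bp before the gene start to 50 bp after it, a window chosen after these sites were seen, hmit-1.1 held 4 WGATAR and gpdh-1 held 3, where 1.72% and 7.02% of all genes held as many or more. Both genes held 3 TGATAA there, and 274 genes, or 1.37% of all, held at least 3. Of those 274 genes, 6, or 2.19%, had a reproducible region over this window, gpdh-1 among them, and 19.0% had a pooled region. Over all genes the shares were 1.297% and 16.8%. These shares were not tested.

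**Figure D2:**
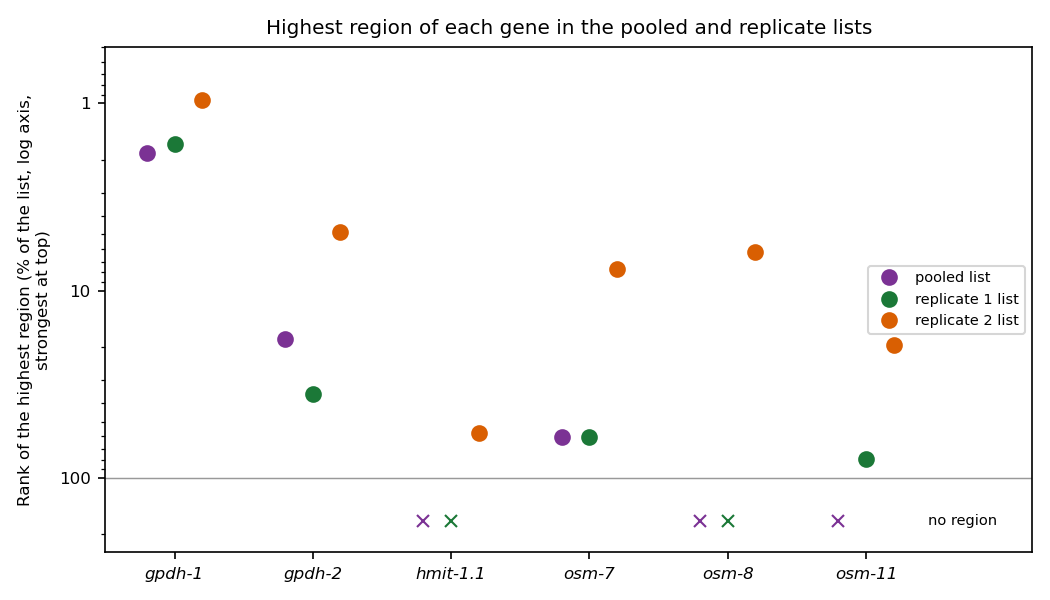
Rank of the highest region of each gene as a percentage of its list, on a log axis with the strongest at the top, for the pooled list and both replicate lists, with crosses for a list that has no region at the gene. All 3 points of gpdh-1 lie above 2%, those of gpdh-2 spread over 4.88% to 35.4%, and osm-7, osm-8 and osm-11 stand higher in replicate 2 than in replicate 1 or are missing from replicate 1.

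The genes osm-7 and osm-11 encode secreted proteins with a DOS motif, a class of co-ligands of the receptor Notch. At osm-7 (WBGene00003887, chromosome III, 13576182 to 13580662, plus strand) the pooled region was inside the gene, in a coding exon with its summit 2205 bp downstream of the start, a score of 16.8 and rank 7700, at 60.6%. In replicate 1 the overlapping region had its summit 2348 bp downstream, a score of 10.4 and rank 11527, at 60.1%. In replicate 2 the overlapping region, 2224 bp downstream, had a score of 5.09 and stood at 72.1%. Both replicates, and the pooled list called on them together, thus had a region at this place, in the weaker part of each list. Its −log10 q-values were low, at 0.113 in the pooled list, 0.0837 in replicate 1 and 0.0813 in replicate 2. The highest region of the gene in replicate 2 was another one, in intron 9, 3100 bp downstream, with a score of 12.1 and rank 2030, in the highest 7.69%. It overlapped no region of the pooled list or of replicate 1, and it also lay in the window of the neighbouring gene T05D4.5. Further regions of replicate 2 had summits 456 bp upstream (7.89, at 25.7%) and 3322 bp downstream (6.51, at 42.1%). The nearest reproducible summit was 67564 bp away.

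At osm-11 (WBGene00003891, chromosome X, 17420211 to 17421582, minus strand) replicate 1 had a region over the gene start and replicate 2 had regions on either side of it. The pooled list had none in the window. Replicate 1 had its summit 6 bp downstream of the start, with a score of 9.27 and rank 15224, at 79.4% of the list. The −log10 q-value of that region was low, at 0.0438. Replicate 2 had a summit 187 bp upstream, with a score of 8.69 and rank 5163, at 19.6%, and another 257 bp downstream, with a score of 7.06, at 34.6%. Both overlapped the replicate 1 region, but neither covered its summit or the gene start. A region 1168 bp upstream in replicate 2 (5.05, at 73.2%) did not overlap it. The non-coding gene F11C7.9 overlaps this start. The nearest pooled summit was 4614 bp downstream and the nearest reproducible one was 236993 bp away, where 89.6% of genes had one as near or nearer.

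The gene osm-8 (WBGene00003888, chromosome II, 7604196 to 7605406, minus strand) encodes a secreted mucin-like protein of the epidermis. It had a region in replicate 2 alone, from 7605252 to 7605615, with the summit 28 bp upstream of the start, a score of 12.9 and rank 1634, in the highest 6.19%. The gene lies inside npp-21, a nuclear pore gene on the other strand, so the region was also in an intron of npp-21. The nearest replicate 1 summit was 8789 bp downstream, the nearest pooled one 10462 bp upstream and the nearest reproducible one 25986 bp upstream.

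The highest replicate 2 regions of osm-8, osm-7 and osm-11 are shown because none holds WGATAR within 50 bases of its summit. Each is 101 bases of the reference (WBcel235) centred on the summit, 5′ to 3′ along the gene, and WGATAR would be in capitals. They are chrII:7605384-7605484 on the minus strand, chrIII:13579232-13579332 on the plus strand and chrX:17421719-17421819 on the minus strand.
osm-8 start: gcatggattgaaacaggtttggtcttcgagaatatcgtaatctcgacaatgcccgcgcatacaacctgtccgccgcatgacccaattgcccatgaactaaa
osm-7 intron 9: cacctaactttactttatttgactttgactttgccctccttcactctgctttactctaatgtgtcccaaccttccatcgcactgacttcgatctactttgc
osm-11 upstream: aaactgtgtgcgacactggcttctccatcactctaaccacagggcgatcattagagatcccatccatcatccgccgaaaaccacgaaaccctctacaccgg
In the whole of these regions osm-8 held 1 WGATAR, 90 bases from the summit, osm-7 held none and osm-11 held 2, the nearer one 66 bases from the summit. Those of osm-11 are printed in 30 bases each, from chrX:17421821-17421850 and chrX:17421838-17421867 on the minus strand, and they read as their reverse complements along the gene.
osm-11 site nearer the start: atttttcgaccaCTATCTtctcatcttcag
osm-11 site farther upstream: tcatcatcatcaTTATCAtttttcgaccac

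Among the genes with a region, the median rank of the highest region was 18.2% for the 3 members of the pooled list, against 38.7% for all genes with one. It was 47.8% against 36.1% in replicate 1 and 6.94% against 32.3% in replicate 2. A gene with more regions in its window has more that can rank high. The 6 genes had longer windows than all genes, and more replicate 2 regions per kb (0.505 against 0.291). The medians were not adjusted for this, and the pooled median is the value of gpdh-2. The replicate 1 median is over 4 genes, of which gpdh-1 (1.65%) and gpdh-2 (35.4%) stood higher than the median of all genes, and osm-7 (60.1%) and osm-11 (79.4%) stood lower. As a percentage of the list, replicate 2 gave the highest standing of every one of the 6 genes, and its list was the longer of the pair. By the share of genes with a higher region, gpdh-1 stood higher in the pooled list, at 1.19% against 1.37% in replicate 2. Whether read depth or background in the replicate 2 library had a part in the higher percentages there was not tested. For the nearest reproducible summit the median distance was 46775 bp over the 6 genes, against 63471 bp over all genes.

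**Figure D3:**
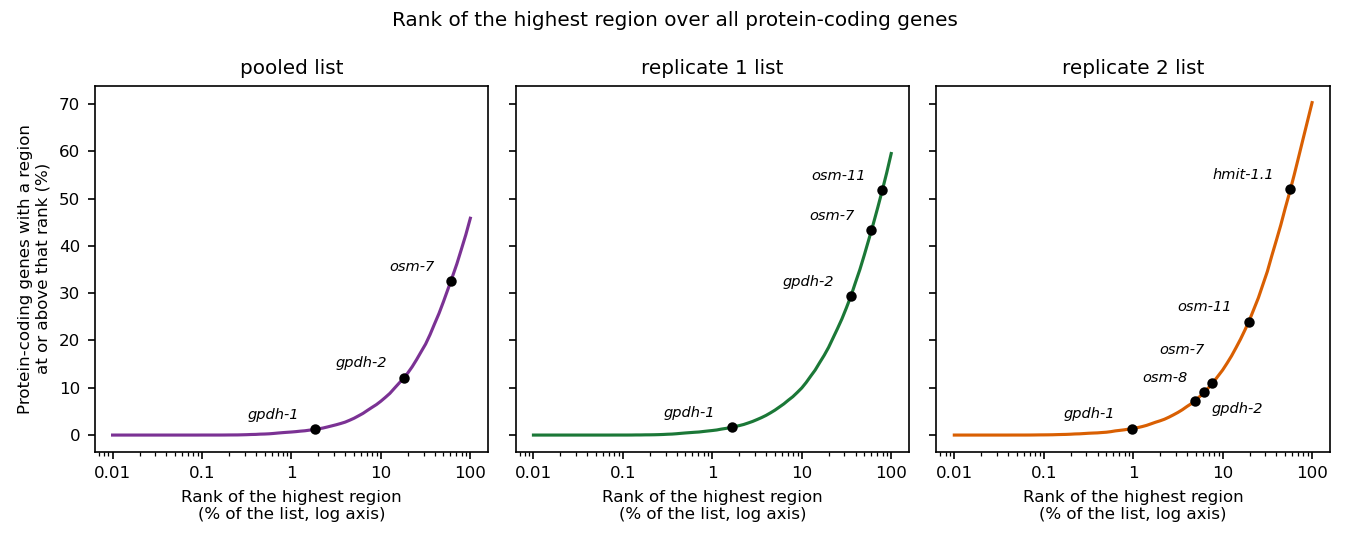
Share of all protein-coding genes with a region at or above a given rank (y axis, percent) against that rank as a percentage of the list (x axis, log), in the pooled list and both replicate lists, with the 6 genes marked at their highest region. In each list gpdh-1 lies at the foot of the curve, where under 2% of genes had a region as high, and osm-11 stands at 79.4% of the list in replicate 1 and at 19.6% in replicate 2.

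GATA sequence was common upstream of all 6 genes. In the 2000 bp upstream of the gene, WGATAR occurred 8 times at gpdh-1, 5 times at gpdh-2 and at hmit-1.1, 8 times at osm-7 and at osm-8, and 9 times at osm-11, with a median of 5 over all genes and at least 1 at 98.4% of genes. As many as at osm-11 were found at 10.4% of genes, and as many as at gpdh-1 at 17.7%. TGATAA occurred 5 times at gpdh-1, 0 times at gpdh-2, 4 times at hmit-1.1, 2 times at osm-7 and at osm-8, and 5 times at osm-11, with a median of 2 and at least 1 at 86.5% of genes. Of the upstream WGATAR, 3 of 8 at gpdh-1 lay in a reproducible region and none at the other 5 genes did, where 0.647% of the 101419 upstream copies of all genes did. In a pooled region lay 4 of the 8 upstream WGATAR at gpdh-1, 2 of the 5 at gpdh-2 and none at the other 4 genes, where 7.69% of the upstream copies of all genes did. Over the whole window, for which no share over all genes was computed, 4 of 16 WGATAR at gpdh-1, 4 of 19 at gpdh-2 and 1 of 16 at osm-7 lay in a pooled region, and none of the 13 at hmit-1.1, the 13 at osm-8 or the 12 at osm-11.

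Around summits, WGATAR within 50 bp was found in 1 of the 6 pooled regions, in 3 of the 7 regions of replicate 1 (23.3% of all its nuclear regions) and in 3 of the 17 regions of replicate 2 (21.9% of all). Somewhere in the region it was found in 6 of 6 pooled regions, against 62.2% of all nuclear pooled regions. Regions of one gene are near each other and are not independent, and those counts were not tested.

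**Figure D4:**
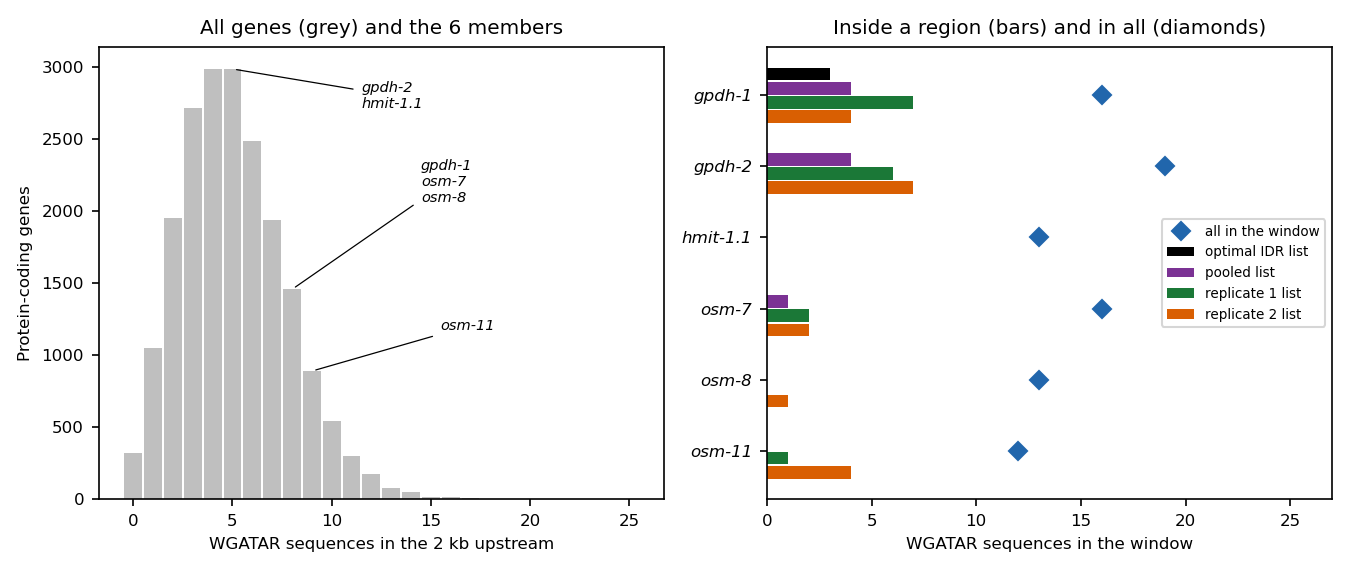
Left, number of WGATAR sequences in the 2000 bp upstream of a gene (x axis) against the number of protein-coding genes (y axis), with the 6 genes marked. Right, number of WGATAR sequences in each gene's window (x axis), in all (diamonds) and inside a region of each list (bars). The 6 genes hold 12 to 19 WGATAR in their windows, and gpdh-1 has bars in all 4 lists, while hmit-1.1 has none.

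The genes whose standing was most like that of gpdh-1 over the pooled list and both replicate lists, of 7545 genes with a region in all 3, were spc-1, C55B6.7 and dnj-7, all on chromosome X. The distance, Euclidean over the 3 percentages, was 0.118 percentage points for spc-1, the gene of alpha spectrin, whose pooled region had a score of 59.1 and a summit 800 bp upstream. It was 0.271 for C55B6.7 and dnj-7, which share 1 region with a score of 59.8 and WGATAR at its summit, 2013 and 569 bp upstream of their starts.

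Of 57 other genes in 5 lists around the osmotic response, 13, or 22.8%, had a reproducible region, against 3.55% of all genes, and 34, or 59.6%, had a pooled region, against 45.8% of all genes. Their windows were longer, with a median of 5.84 kb, and per kb they held 0.0376 reproducible regions against 0.00724 for all genes. A region shared by windows counted for each of them, over all genes as well. The 16 reproducible regions counted here were 14 distinct ones. The other lists were closer, at 0.195 against 0.141 per kb in the pooled list, 0.273 against 0.211 in replicate 1 and 0.350 against 0.291 in replicate 2. The lists were drawn up with earlier results of these data known, and these differences were not tested. By list, a reproducible region was found at 3 of 12 genes of glycerol and trehalose metabolism, 1 of 17 of osmolyte, water and volume transport, 1 of 12 of Notch and its DOS co-ligands, 5 of 10 regulators of the osmotic response, and 3 of 6 collagens of the cuticle furrows, whose loss is known to switch on gpdh-1.

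In glycerol and trehalose metabolism, gpdh-3, annotated as a mitochondrial glycerol-3-phosphate dehydrogenase, had a reproducible summit 1246 bp upstream with a score of 72.2, above the 60.2 of gpdh-1. The trehalase gene tre-1 had one 6 bp upstream at 45.0, and the phosphatase gene pgph-2 had one in an intron 1419 bp downstream at 42.97. The 3 glycerol-3-phosphate dehydrogenase genes thus had reproducible regions at gpdh-1 and gpdh-3 and a lower pooled region at gpdh-2. In transport the one gene was wnk-1, a kinase of cell volume control, 1825 bp upstream at 51.7. Among the DOS co-ligands it was dos-3, in a coding exon 3596 bp downstream at 82.8, while osm-7 and osm-11 had none.

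Among the regulators, ogt-1, the O-GlcNAc transferase, had a summit 190 bp upstream at 65.3, with WGATAR within 50 bp. The gene lea-1, related to late embryogenesis abundant proteins that protect cells from drying, had one in an intron 866 bp downstream at 50.6, also with WGATAR. The kinase gene unc-43 had one in an intron 7670 bp downstream at 56.1, with 3 WGATAR. The highest at elt-3 itself was in an intron, 2479 bp downstream at 75.0, a locus that the transgene may carry as well, and at the moulting regulator nhr-23 it was 971 bp upstream at 46.6. Of the collagens, dpy-3 had a summit 178 bp upstream at 53.4 with 2 WGATAR, and dpy-10 and dpy-2 shared 1 region at 57.6, 233 and 1832 bp upstream of their starts. No WGATAR lay within 50 bp of the summits given for gpdh-3, tre-1, wnk-1, elt-3, nhr-23, dpy-10 and dpy-2. It lay there at pgph-2 and dos-3 too, and at 38.4% of all nuclear reproducible regions.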

How the data were processed

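ELT-3 ChIP-seq was analysed from the ce11 region lists of 2 biological replicates. Per the authors' listings of each library, regions were called per replicate and on pooled replicates against a control, and an optimal list was derived by IDR. For the aligner, the caller and the IDR cutoff, no name or value is given in the sources used here. The deposited lists hold a score (ranked here within a list) and a −log10 q-value (used as an alternative ranking). The ce10 lists were not used. Windows came from Ensembl release 115 on WBcel235, and all regions ended within its chromosomes. Sequences were read from the RefSeq genome of that assembly. A gene counted once per list. Counts stand beside those over 19973 protein-coding genes, without tests, computed with Python 3.11.15, numpy 2.4.6 and pandas 2.3.3. The members and lists were chosen with earlier results of these data known. Other genes named share a member's highest region, are the 3 most like gpdh-1, or are listed genes with an optimal region. Neighbours with other shared windows, and genes nearest to a region, were added after their values were seen. Alternatives covered window, overlap, threshold, replicate, ranking and motif. Counting was tested on simulated regions.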

Additional observations from a re-analysis of the deposited data

How the results depend on the processing

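Of 34 alternatives for the counts of genes and regions, 26 stayed within 1.5 times and 8 did not. Windows reaching 1000 bp before and 500 bp past the start leave out gene bodies. They left 1 gene with a pooled region (gpdh-1), where 28.1% of all genes had one, and 2 in replicate 1, where 37.6% did. Overlapping replicate regions were left at 2 genes (gpdh-1 and osm-11), against 19.2% of all genes. These windows left 0 pooled regions with WGATAR at the summit. The upper part of each list by score (1 region in 2) left 2 genes in replicate 1 and 1, gpdh-1, with overlapping replicate regions. Of all genes 38.1% and 18.1% were left. WGATAR anywhere in the region raised the pooled regions that held it to 6, and windows from 5 kb upstream gave 2. The control sequence WGTAAR at the summit was found in as many pooled regions as WGATAR, 1 of 6. Over all nuclear pooled regions the shares were 20.7% and 24.6%. In replicate 1 WGTAAR was at 1 of 7 summits of these genes, against 3 for WGATAR, where 22.0% of all nuclear regions had WGTAAR. In replicate 2 it was at 6 of 17, against 3 for WGATAR, where 20.8% had it. Over nuclear reproducible regions the shares were 12.1% for WGTAAR and 38.4% for WGATAR. The count with a reproducible region was 1 to 1 with either replicate left out, each taken as its 637 highest regions, and the gene was gpdh-1. Of 12 alternatives for the rank of the highest pooled region, 2 moved by more than the spread between replicates, both with replicate 2 alone. They were gpdh-1, at 0.963% against 1.85% in the pooled list, and osm-7, at 7.69% against 60.6%, whose replicate 2 region lies elsewhere in the gene. The values with 1 replicate alone are that replicate's own ranks, and the spread is the gap between those same ranks. Whether such a value moved was therefore set by where the pooled rank fell, and it does not measure stability. With replicate 1 alone gpdh-1 stood at 1.65% and osm-7 at 60.1%, and gpdh-2 ranged over 4.88% to 35.4%, against 18.2%. No paired analysis was possible because the study has 1 group. Read depth is unknown, so a gene with no region cannot be told from one with too few reads.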
